A study of Mus musculus with 16 samples.

Results

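The 10 genes described here, Camp, Ngp, Ltf, Lcn2, Mmp8, Mmp9, Mpo, S100a8, S100a9 and Retnlg, encode proteins that neutrophils store in granules, keep in the cytosol or secrete. They were taken by gene symbol from 19505 genes measured on Clariom S mouse arrays, and each was read from a single probe set. The 16 arrays formed 4 groups of 4. S100a5-tauGFP mice, in which green fluorescent protein (GFP) is driven by S100a5, which olfactory sensory neurons switch on with activity, were kept singly in clean-air chambers for 40 h. From 26 h on, 12 mice received pulses of cigarette smoke odour and 12 received filtered air (vehicle), for 10 s every 20 min. The olfactory mucosa of 3 mice was pooled, dissociated and separated by a sort on GFP, which gave smoke GFP+, vehicle GFP+, smoke GFP- and vehicle GFP- cells. All 24 mice carried the reporter, were 7 to 12 weeks old and were of both sexes. A replicate is therefore a pool of mice, and precision is limited by 4 arrays a group. The GFP+ fraction holds neurons in which the reporter is on, and the GFP- fraction holds every other cell of the dissociated mucosa, olfactory neurons without GFP included.

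Neutrophils are short-lived phagocytes that are made in the bone marrow and travel in the blood. They make their granule proteins in succession as they mature: primary (azurophil) granules with myeloperoxidase are filled at the promyelocyte stage, secondary (specific) granules at the following stages, and tertiary (gelatinase) granules last. S100a8 and S100a9 together form calprotectin, an abundant cytosolic protein pair that acts as an alarm signal when released. The olfactory mucosa has vessels and glands beneath its neurons, and Ltf and Lcn2 are also made by gland and airway epithelium in mice.

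In both exposures all 10 genes were far lower in GFP+ than in GFP- cells, and smoke changed none of them past the threshold in either fraction. Values are the deposited log2 values, so a difference of 1 is a 2-fold difference. Tests are from limma, fitted to all genes and all 16 arrays, with two-sided p-values adjusted by the Benjamini-Hochberg method over the 19505 genes and called at 0.05. In sorted bulk fractions, fewer cells of a type and less RNA per cell cannot be told apart.

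The sort itself was checked with S100a5, the gene that drives the reporter. It stood at 17.11, 16.80, 17.14 and 17.01 in smoke GFP+ and 16.39, 16.51, 16.44 and 16.49 in vehicle GFP+ cells, against 16.08, 15.51, 15.89 and 16.001 in smoke GFP- and 14.91, 15.29, 15.47 and 15.31 in vehicle GFP- cells. GFP+ arrays exceeded GFP- arrays in both exposures, by 1.15 in smoke mice (SE 0.14, adjusted p = 6.45e-06) and 1.21 in vehicle mice (SE 0.14, adjusted p = 2.88e-06). As a measure of the lowest readable signal, the 95th percentile of 321 vomeronasal receptor genes was taken, which lay between 6.14 and 6.78 on the 16 arrays. Values above 16, the log2 ceiling that 16 bits of scanner range allow, may be stretched or compressed, and differences that rest on them are uncertain in size. Replicate 1 of both exposures carried little Y-linked signal: Uty stood at 3.52 and 6.57 in the smoke GFP+ and GFP- fractions and at 3.64 and 4.07 in the vehicle ones, against 10.6 to 12.1 on the other 12 arrays. Eif2s3y, also Y-linked, stood at 4.66 and 7.88 in these smoke fractions and at 3.90 and 4.43 in the vehicle ones. The smoke GFP- array of replicate 1 thus held some Y-linked signal that its GFP+ partner did not show.

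The promoters of 9 of the 10 genes were listed in the RefSeq promoter table (build GRCm38.p6). Camp, Ngp, Ltf and Mmp8 lie on chromosome 9, where 8 genes separate Camp from Ngp and 20 separate Ngp from Ltf. Their 250 bases before the start of the gene are printed with that of Lcn2. These 5 secondary granule genes moved together across pools, as described further on, and so did Mmp9, S100a8, S100a9 and Retnlg. Capitals mark the letters TTGCNNAA on either strand, a form of the site of the C/EBP factors, of which C/EBP epsilon is known to drive secondary granule genes in mice. These letters were chosen after the promoters had been read.
Camp (chr9:109849457-109849706, minus strand): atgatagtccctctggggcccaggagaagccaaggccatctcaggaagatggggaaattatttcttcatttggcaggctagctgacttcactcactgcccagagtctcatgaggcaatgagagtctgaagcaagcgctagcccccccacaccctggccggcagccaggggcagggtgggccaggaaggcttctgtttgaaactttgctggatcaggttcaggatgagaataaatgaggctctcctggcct
Ngp (chr9:110419558-110419807, plus strand): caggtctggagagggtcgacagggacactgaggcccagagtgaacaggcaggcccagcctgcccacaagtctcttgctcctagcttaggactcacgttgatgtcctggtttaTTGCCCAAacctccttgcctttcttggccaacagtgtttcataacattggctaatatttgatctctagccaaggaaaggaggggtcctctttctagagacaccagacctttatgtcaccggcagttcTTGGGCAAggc
Ltf (chr9:111019042-111019291, plus strand): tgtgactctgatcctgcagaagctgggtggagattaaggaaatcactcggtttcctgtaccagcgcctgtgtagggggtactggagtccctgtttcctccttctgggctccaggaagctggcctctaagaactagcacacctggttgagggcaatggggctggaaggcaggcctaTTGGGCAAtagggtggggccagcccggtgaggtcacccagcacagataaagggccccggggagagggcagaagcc
Mmp8 (chr9:7558179-7558428, plus strand): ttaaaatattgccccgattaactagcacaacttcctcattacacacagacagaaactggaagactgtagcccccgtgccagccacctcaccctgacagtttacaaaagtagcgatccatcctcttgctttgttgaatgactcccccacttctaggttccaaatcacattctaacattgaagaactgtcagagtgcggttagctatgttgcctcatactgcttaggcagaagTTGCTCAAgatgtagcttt
Lcn2 (chr2:32387740-32387989, minus strand): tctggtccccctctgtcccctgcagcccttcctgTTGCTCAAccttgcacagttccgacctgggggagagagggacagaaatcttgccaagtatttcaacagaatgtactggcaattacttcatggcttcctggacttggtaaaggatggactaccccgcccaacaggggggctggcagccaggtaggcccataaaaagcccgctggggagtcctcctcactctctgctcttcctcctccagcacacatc

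The Ngp promoter held these letters at 2 places, beginning 138 and 11 bases before the start. Ltf held them 75 bases, Mmp8 19 bases and Lcn2 216 bases before the start. S100a9 and Retnlg also had 1 match each, 236 and 246 bases before the start. Camp, S100a8 and Mpo had none in this window, and Mmp9 is named only. In all, 6 of the 9 listed members held a match, and 9.56% of the 32851 promoters in the table did. As the letters were chosen after the members' promoters had been read, these shares are not a test. The letters TATAAA were found in 1 listed member (S100a8) and in 12.4% of all promoters, and GAGGAA, the core bound by PU.1, in 5 listed members and in 23.3% of all promoters. None of the TTGCNNAA matches overlapped either of the other motifs. A match is a description of letters and does not show binding.

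Camp encodes cathelicidin, the antimicrobial peptide precursor of secondary granules. It stood at 5.78, 5.27, 5.79 and 5.36 in smoke GFP+ and 5.40, 5.54, 5.95 and 6.09 in vehicle GFP+ cells, against 12.84, 13.31, 14.35 and 13.02 in smoke GFP- and 13.05, 13.23, 13.67 and 14.30 in vehicle GFP- cells. No GFP+ array reached the vomeronasal level, so only a bound can be given: Camp was at least 112-fold lower in GFP+ than in GFP- cells of smoke mice and at least 138-fold lower in those of vehicle mice. The fitted differences were -7.83 (SE 0.31, adjusted p = 2.28e-11) and -7.82 (SE 0.31, adjusted p = 1.62e-11). Smoke and vehicle arrays overlapped in both fractions.

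Ngp encodes neutrophilic granule protein, a cathelicidin relative of mice. Its values were 10.18, 10.82, 11.42 and 9.47 in smoke GFP+ and 10.58, 9.83, 10.68 and 11.31 in vehicle GFP+ cells, against 17.39, 17.72, 18.10 and 17.46 in smoke GFP- and 17.49, 17.61, 17.70 and 17.90 in vehicle GFP- cells. All 8 GFP- arrays lay above the scanner ceiling, whereas the GFP+ arrays lay well above the vomeronasal level and spread over 1.95 in smoke and 1.47 in vehicle mice. The GFP+ cells were lower by a fitted 147-fold in smoke mice and 135-fold in vehicle mice (differences -7.20 and -7.07, SE 0.34 each), folds of uncertain size.

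Ltf encodes lactotransferrin, an iron-binding protein of secondary granules and of exocrine glands. It measured 6.93, 7.17, 7.08 and 6.64 in smoke GFP+ and 6.68, 6.55, 7.59 and 7.20 in vehicle GFP+ cells, against 13.69, 14.62, 15.16 and 13.62 in smoke GFP- and 14.13, 14.31, 14.45 and 14.83 in vehicle GFP- cells. The GFP+ arrays sat between 6.55 and 7.59, all above the vomeronasal level of their array. In GFP+ cells Ltf was 160-fold lower in smoke mice (difference -7.32, SE 0.30, adjusted p = 3.42e-11) and 172-fold lower in vehicle mice (-7.43, adjusted p = 2.1e-11).

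Lcn2 encodes lipocalin 2, which binds the siderophores of bacteria and so withholds iron. Its arrays read 9.76, 10.71, 10.94 and 8.80 in smoke GFP+ and 10.01, 9.87, 10.69 and 11.10 in vehicle GFP+ cells, against 17.28, 17.63, 17.90 and 17.18 in smoke GFP- and 17.27, 17.43, 17.61 and 17.78 in vehicle GFP- cells. Every GFP- array was above the ceiling, and no GFP+ array overlapped them. The differences were -7.44 in smoke and -7.11 in vehicle mice (SE 0.37 each, adjusted p = 2.25e-10 and 3.11e-10).

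Mmp8 encodes neutrophil collagenase, stored in secondary granules. It stood at 6.61, 7.12, 6.99 and 6.23 in smoke GFP+ and 5.81, 6.06, 6.85 and 7.29 in vehicle GFP+ cells, against 13.35, 15.04, 15.59 and 13.72 in smoke GFP- and 14.31, 14.27, 15.19 and 15.44 in vehicle GFP- cells. Only 2 of 4 GFP+ arrays of each exposure exceeded the vomeronasal level. Its difference was -7.69 in smoke mice (SE 0.45) and -8.30 in vehicle mice (SE 0.45, adjusted p = 4.25e-10). These sizes are uncertain, because the GFP+ means of 6.74 and 6.50 lay close to the group levels of 6.57 and 6.46. The smoke GFP- arrays of Mmp8 ranged over 2.24, with replicates 1 and 4 low and replicates 2 and 3 high.

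Mmp9 encodes gelatinase B, the enzyme that gives tertiary granules their other name. Its values were 4.94, 6.05, 5.90 and 5.47 in smoke GFP+ and 5.11, 5.74, 5.86 and 5.28 in vehicle GFP+ cells, against 11.97, 13.38, 14.19 and 12.47 in smoke GFP- and 12.93, 12.68, 13.70 and 14.06 in vehicle GFP- cells. As for Camp, no GFP+ array passed the vomeronasal level. Mmp9 was at least 86.3-fold lower in GFP+ than in GFP- cells of smoke mice and at least 118-fold lower in those of vehicle mice (fitted differences -7.41 and -7.85, SE 0.41 each, adjusted p = 6.65e-10 and 3.05e-10).

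Mpo encodes myeloperoxidase, the peroxidase of primary granules. It stood at 8.19, 7.76, 7.34 and 7.80 in smoke GFP+ and 7.89, 5.92, 7.71 and 8.09 in vehicle GFP+ cells, against 13.44, 14.24, 14.59 and 14.22 in smoke GFP- and 14.09, 13.87, 14.17 and 13.96 in vehicle GFP- cells. Its difference between the fractions was -6.35 in smoke mice (SE 0.36, adjusted p = 9.5e-10, 81.7-fold lower in GFP+ cells) and -6.62 in vehicle mice (adjusted p = 5.05e-10, 98.1-fold lower). These were the smallest fitted values of the 10. That place is uncertain, because Mmp9 was bounded only at 6.43 log2 units lower in smoke mice. The vehicle GFP- arrays lay within 0.30 of each other, the narrowest group of any of the 10 genes. In vehicle GFP+ cells replicate 2, at 5.92, was the only array under the vomeronasal level, and the next lowest stood at 7.71.

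S100a8 and S100a9, the calprotectin pair, are adjacent genes on chromosome 3, with 2 genes between S100a8 and S100a5. S100a8 measured 8.24, 8.78, 9.39 and 8.22 in smoke GFP+ and 7.45, 7.91, 8.73 and 9.44 in vehicle GFP+ cells, against 15.70, 16.48, 16.81 and 15.83 in smoke GFP- and 16.09, 16.12, 16.65 and 16.93 in vehicle GFP- cells. S100a9 measured 8.60, 9.07, 9.55 and 8.29 in smoke GFP+ and 8.68, 8.59, 8.68 and 9.72 in vehicle GFP+ cells, against 15.86, 16.76, 16.91 and 16.03 in smoke GFP- and 16.21, 16.35, 16.65 and 16.99 in vehicle GFP- cells. In GFP+ cells both genes lay above the vomeronasal level on all 8 arrays, and in GFP- cells the vehicle arrays of both exceeded the ceiling, as did 2 smoke arrays of S100a8 and 3 of S100a9. S100a8 differed by -7.55 in smoke and -8.06 in vehicle mice (SE 0.38 each), and S100a9 by -7.51 and -7.63 (SE 0.31 each). S100a5, close by in the same cluster, ran the other way and was higher in GFP+ cells.

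Retnlg encodes resistin-like gamma, a secreted protein of mouse neutrophils and their bone marrow precursors. It read 8.17, 9.12, 9.92 and 8.65 in smoke GFP+ and 8.55, 8.52, 8.96 and 9.93 in vehicle GFP+ cells, against 16.12, 17.17, 17.47 and 16.56 in smoke GFP- and 16.72, 16.79, 17.29 and 17.56 in vehicle GFP- cells. All 8 GFP- arrays exceeded the ceiling. The difference was -7.87 in smoke mice (SE 0.38, adjusted p = 1.64e-10) and -8.10 in vehicle mice (adjusted p = 1.03e-10), sizes that are uncertain for that reason.

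**Figure D1:**
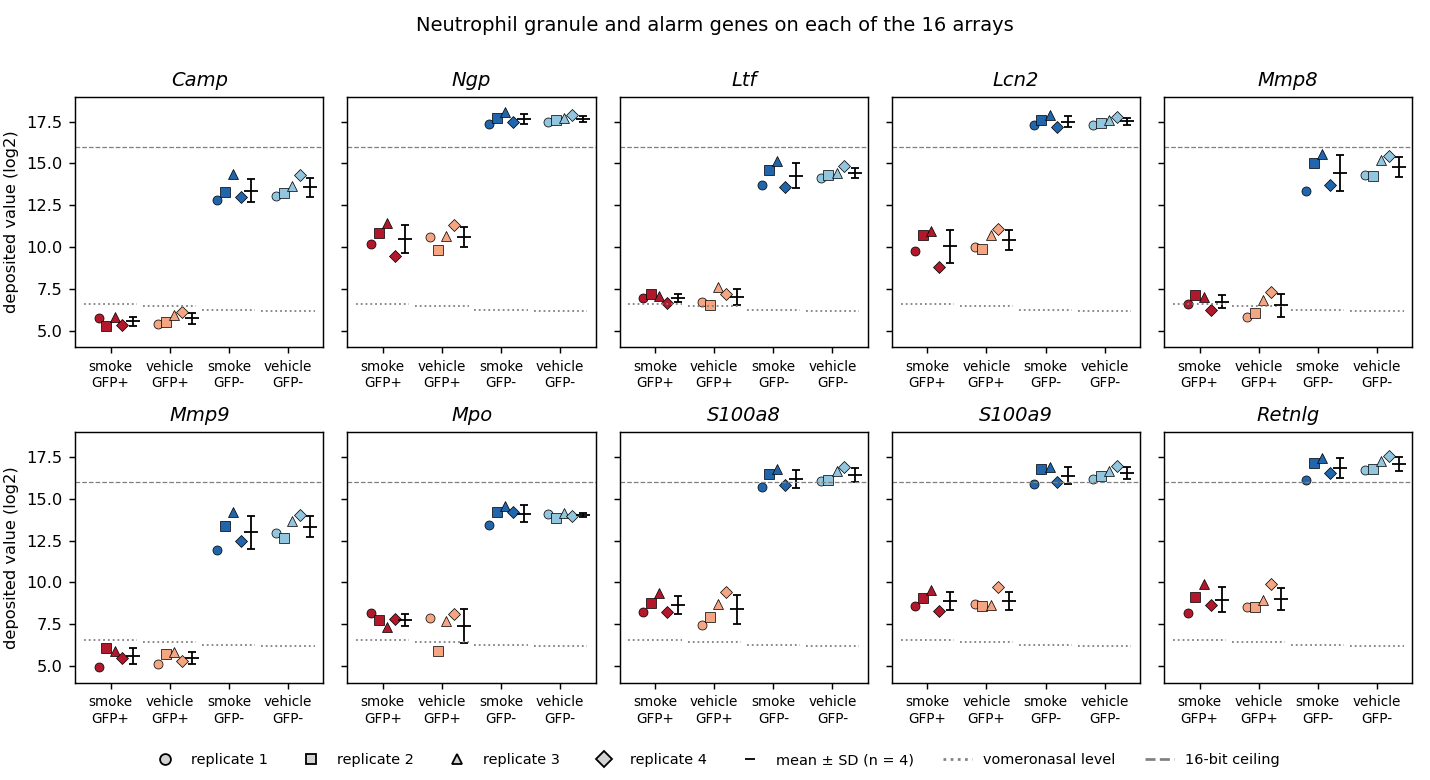
Deposited log2 value of each gene (vertical axis) on the 4 arrays of each group (horizontal axis), with the symbol giving the replicate and the black bar beside them the mean ± SD (n = 4). Dotted lines mark the vomeronasal level of each group and the dashed line the 16-bit ceiling at 16; for all 10 genes the GFP+ arrays lie below the GFP- arrays, and smoke and vehicle arrays overlap.

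Over the 10 genes the GFP+ minus GFP- differences had a median of -7.48 in smoke mice (range -7.87 to -6.35) and -7.73 in vehicle mice (range -8.30 to -6.62), against 0.15 and 0.17 for all genes. With Camp and Mmp9 at their bounds the medians were -7.38 and -7.27. All 10 were called lower in GFP+ cells in both exposures, against 14.4% of all genes in smoke mice and 15.4% in vehicle mice. Counted in either direction, 32.7% and 39.6% of all genes were called. In all 10 the GFP+ and GFP- arrays did not overlap, against 29.8% of all genes in smoke and 39.0% in vehicle mice. From the most negative difference upward they ranked 4 to 28 among 19505 genes in smoke mice and 1 to 32 in vehicle mice. The order among them cannot be read, because some genes exceeded the ceiling in GFP- cells and others lay at the vomeronasal level in GFP+ cells. Within single pools, the GFP+ array was lower than the GFP- array of the same number for every gene and every pool, by differences of -8.60 to -5.25 in smoke pools and -8.78 to -5.87 in vehicle pools. Both comparisons draw on different mice, but each sorted fraction came from the same pools as its partner.

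Residual signal of the 10 genes in GFP+ cells was not uniform. The GFP+ group means of 8 genes exceeded the vomeronasal level in both exposures, and those of Camp and Mmp9 did not. Averaged over the 10 genes, the GFP+ arrays of replicates 1 to 4 stood at 7.74, 8.19, 8.43 and 7.49 in smoke mice and 7.62, 7.45, 8.17 and 8.55 in vehicle mice. The GFP- arrays of the same pools stood at 14.77, 15.63, 16.11 and 15.01 in smoke mice and 15.23, 15.27, 15.71 and 15.98 in vehicle mice. In each exposure the pool with the highest GFP- value (smoke replicate 3, vehicle replicate 4) also had the highest GFP+ value. The part played in this by cells carried over between the fractions was not tested.

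Exposure to smoke did not move the 10 genes past the threshold in either fraction. In GFP+ cells 0 of 10 were called, against 0.108% of all genes, and the groups of all 10 overlapped, whereas they did not overlap for 2.99% of all genes. The smoke minus vehicle differences ran from -0.37 (Lcn2) to 0.37 (Mpo), with 4 above and 6 below 0 and a median of -0.03, against -0.004 for all genes. In GFP- cells 0 of 10 were called, against 0.128% of all genes, and again all 10 overlapped, whereas 2.73% of all genes did not. There the differences ran from -0.38 (Mmp8) to 0.10 (Mpo) with a median of -0.17, against 0.01 for all genes. Of the 10 genes 9 lay below 0, and of all 19505 genes 9285 did. At an unadjusted p below 0.05 limma called 0 of 10 in each fraction as well, against 4.80% of all genes in GFP+ and 5.72% in GFP- cells. Markers of other blood cells also lay mostly below 0 for smoke in GFP- cells, with medians of -0.51 for the B cell list (10 of 12 below 0, 6 at an unadjusted p below 0.05), -0.59 for the erythroid list (5 of 5 below 0) and -0.30 for the macrophage and monocyte list (9 of 11 below 0). The lean was not confined to blood cells. Medians were -0.35 for the gland and respiratory epithelium list (13 of 17 below 0) and -0.15 for the sustentacular list (10 of 14). Ltf is 1 of those 17 gland genes, and 6 of the others lay below the vomeronasal level in all 4 groups, as did 3 of the 12 B cell genes. The signs of such genes may not be readable. They were -0.26 for proliferation genes (9 of 11) and -0.36 for neutrophil surface receptors (15 of 16). Mature olfactory neuron genes lay above 0 for 11 of 12, with a median of 0.05. None of these genes passed the adjusted threshold, and their part in the values of the 10 genes was not tested.

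The intervals show what size of change the 4 pools per group could have missed, with 1 spread per gene shared by all 4 groups. Camp varied more in GFP- cells (SD 0.67 in smoke and 0.56 in vehicle mice) than in GFP+ cells (0.27 and 0.33). Its GFP- interval may therefore be too narrow. The reverse held for Ngp, with SDs of 0.32 and 0.17 in GFP- and 0.84 and 0.60 in GFP+ cells. For Camp the 95% interval of the smoke minus vehicle difference was -0.84 to 0.45 in GFP+ and -0.83 to 0.46 in GFP- cells (adjusted p = 0.999 and 0.964). For S100a8 it was -0.54 to 1.09 in GFP+ and -1.06 to 0.57 in GFP- cells (adjusted p = 0.999 and 0.963). The widest was that of Mmp8, at -0.72 to 1.18 in GFP+ and -1.33 to 0.57 in GFP- cells. A change of about 1 on the log2 scale in either direction therefore lay inside or near the interval of several genes. For Ngp, Lcn2 and Retnlg, whose GFP- arrays were all above the ceiling, a small change there may not be readable.

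The smoke effect was also compared between the fractions. The difference of the 2 smoke effects passed the threshold for 0 of 10 genes, against 0.174% of all genes. It ran from -0.34 (Lcn2) to 0.61 (Mmp8, 95% interval -0.74 to 1.95) with a median of 0.18, and the lowest adjusted p was 0.944. Each of these values uses the same arrays as the separate smoke effects.

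**Figure D2:**
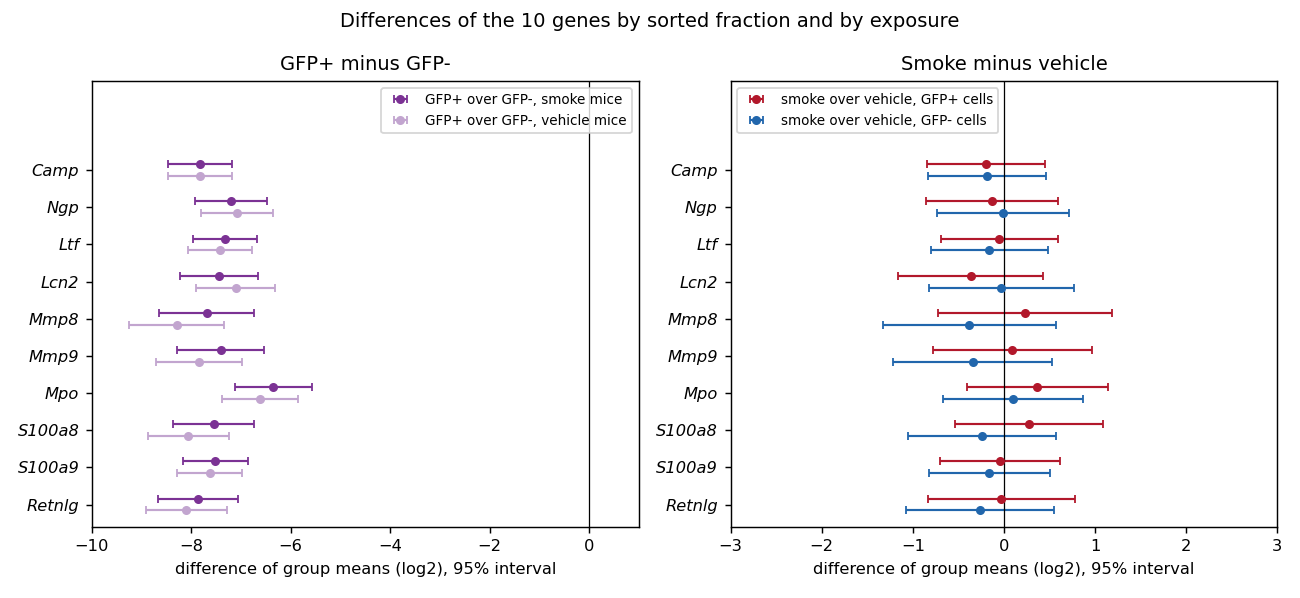
Differences of group means on the log2 scale (horizontal axis, points) with 95% intervals from limma (bars) for the 10 genes (vertical axis), GFP+ minus GFP- on the left and smoke minus vehicle on the right. The sort differences lie between -8.30 and -6.35, and every smoke interval includes 0.

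Other genes of the neutrophil were read from lists chosen for the granules, receptors, cytosol and transcription factors of these cells. Of all genes 14.4% were called lower in GFP+ cells of smoke mice and 15.4% in those of vehicle mice. Where the GFP+ mean of a gene lay at or below the vomeronasal level, its difference is given as a bound, as for Camp. Of 10 further secondary and tertiary granule genes, 10 were lower in GFP+ cells of both exposures, with fitted medians of -4.77 in smoke and -5.14 in vehicle mice, or -4.05 and -4.29 with such genes at their bounds. Hp, the hemoglobin-binding haptoglobin, was at least 142-fold lower in smoke mice and at least 188-fold lower in vehicle mice. Chil3, a chitinase-like lectin, differed by -7.24 and -7.30. Lyz2, the lysozyme of myeloid cells, differed by -5.34 and -5.63, and Cd177, a neutrophil surface glycoprotein kept in granules, by -6.10 in smoke mice and at least 83.0-fold in vehicle mice. Of 8 further primary granule genes, 7 were lower in both exposures, with fitted medians of -3.02 and -3.14, or -2.33 and -2.47 at the bounds. Elane, neutrophil elastase, differed by -6.47 in smoke mice (adjusted p = 1.65e-10) and -5.94 in vehicle mice, close to Mpo. Ctsc, the protease that activates elastase, differed by -3.08 in smoke mice. Ms4a3, a membrane protein of granulocyte precursors, was at least 5.03-fold lower there, and Ctsg, cathepsin G, at least 5.41-fold lower in vehicle mice.

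Receptors of the neutrophil surface were called lower in GFP+ cells for 15 of 16 genes in smoke mice and 16 of 16 in vehicle mice. The shares of all genes were 14.4% and 15.4%. Itgam, the alpha chain of the integrin Mac-1, averaged 6.61 in GFP+ and 13.33 in GFP- cells of smoke mice (difference -6.72). Mrgpra2b, a peptide receptor of mouse neutrophils, was at least 89.3-fold lower in smoke mice, and Selplg, the ligand of P-selectin, differed by -5.45 there. Among genes of the cytosol and of activation, 21 of 22 were lower in smoke mice and 22 of 22 in vehicle mice. Anxa1, annexin A1, differed by -6.25 in smoke mice and -6.84 in vehicle mice. Cybb and Ncf4, subunits of the NADPH oxidase, differed by -5.55 and -5.80 in smoke mice, and S100a11 by -5.92. Of 8 granulocyte transcription factors 6 were lower in both exposures. Spi1, which encodes PU.1, differed by -5.74 in smoke and -5.87 in vehicle mice, and Cebpd by -2.97 and -3.24. Runx1 was at least 13.2-fold lower in smoke mice and differed by -3.88 in vehicle mice. None of these lists had a gene past the threshold for smoke in either fraction.

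Of 10 receptors and partners of the proteins that the 10 genes encode, 3 were lower and 2 higher in GFP+ cells of smoke mice, and 2 were lower and 1 higher in those of vehicle mice. Of all genes 18.3% were called higher in GFP+ cells of smoke mice and 24.2% in those of vehicle mice, beside the 14.4% and 15.4% called lower, and nothing particular to this list is read from its counts. Tlr4, a receptor of calprotectin, averaged 5.63 in GFP+ and 7.59 in GFP- cells of smoke mice (adjusted p = 3.19e-05), at least 2.03-fold lower, and was at least 2.59-fold lower in vehicle mice. Its partner Cd14 differed by -3.51 and -3.69. Lrp1, a receptor that takes up lactotransferrin, differed by -1.002 in smoke mice (adjusted p = 0.00476). Slc22a17, a receptor of lipocalin 2, was higher in GFP+ cells of vehicle mice by 0.35 (adjusted p = 0.0118), and Cd36, a scavenger receptor that binds calprotectin with its fatty acids, was higher by 0.33 in smoke mice (adjusted p = 0.0275). Of 11 neutrophil attractants and inducers 4 were lower in both exposures and 1 was higher in vehicle mice. Cxcl2, a chemokine that draws neutrophils, averaged 5.87 in GFP+ and 9.75 in GFP- cells of smoke mice, at least 9.06-fold lower. The cytokine genes Tnf and Il6 were at least 4.64-fold and 2.72-fold lower there, and Ccl3, a chemokine gene, differed by -2.17. In GFP- cells the smoke minus vehicle difference of Cxcl2 was -0.70 (adjusted p = 0.854). Cxcl1, another neutrophil chemokine, was among 6 of the 11 genes that lay below the vomeronasal level in all 4 groups.

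Markers of other blood and immune cells stood lower in GFP+ cells along with the neutrophil genes. In smoke mice 10 of 12 B cell genes, 7 of 11 macrophage and monocyte genes, 8 of 9 T and NK cell genes and 9 of 10 mast cell, basophil and eosinophil genes were called lower. In vehicle mice the counts were 10 of 12, 9 of 11, 8 of 9 and 10 of 10. The shares of all genes called lower were 14.4% in smoke and 15.4% in vehicle mice. Cd79a, part of the B cell receptor, was at least 64.4-fold lower in smoke mice, where H2-Aa, an MHC class II chain, differed by -5.35 and Ly6c2, a monocyte surface antigen, by -8.06. All 5 erythroid genes measured and all 11 proliferation genes were lower in both exposures. Car1, a red cell carbonic anhydrase, was at least 31.5-fold lower in smoke mice and Mki67, a marker of dividing cells, at least 46.7-fold. The mean level over the B cell list was between 6.19 and 6.51 in smoke GFP+ and between 6.42 and 6.58 in vehicle GFP+ cells, against values between 8.51 and 9.33 in smoke GFP- and between 9.13 and 9.44 in vehicle GFP- cells. The mean over the macrophage and monocyte list was between 7.63 and 7.90 in smoke GFP+ and between 7.63 and 8.06 in vehicle GFP+ cells, against values between 10.3 and 11.2 in smoke GFP- and between 10.7 and 11.3 in vehicle GFP- cells. In GFP+ cells the group means of 10 of 12 B cell genes and 2 of 11 macrophage and monocyte genes lay at or below the vomeronasal level in smoke mice. The part of other blood cells in the differences of the 10 genes was not tested.

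Counts for markers of the tissue itself are to be read against 14.4% of all genes called lower and 18.3% higher in smoke mice, and 15.4% and 24.2% in vehicle mice. Of 17 gland and respiratory epithelium genes 3 were called lower and 1 higher in GFP+ cells of smoke mice and 5 were called lower in vehicle mice. Ltf belongs to that list too and is 1 of those called lower. Lyz1, the lysozyme of epithelial glands, was at least 6.44-fold lower in smoke and 8.64-fold lower in vehicle mice, and Scgb1c1, a secretoglobin of olfactory glands, differed by -1.02 and -1.88. Over the GFP- arrays Lyz1 deviated with the 10 genes, as described further on. Of 12 mature olfactory neuron genes 4 were higher in GFP+ cells of smoke mice and 6 in those of vehicle mice, with list means of 16.13 to 16.23 in GFP+ and 15.81 to 16.03 in GFP- cells. Of these 12 genes 8 exceeded the ceiling on all 16 arrays, so small differences between them may not be readable. Of 14 sustentacular cell genes 5 were lower and 1 higher in smoke mice, and 10 were lower in vehicle mice. All 9 basal and stratified epithelium genes lay below the vomeronasal level in all 4 groups and allow no comparison. Of 12 endothelial and stromal genes 3 were lower in smoke mice and 4 in vehicle mice. The vascular pericyte gene Rgs5 differed by -3.01 and -3.39.

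**Figure D3:**
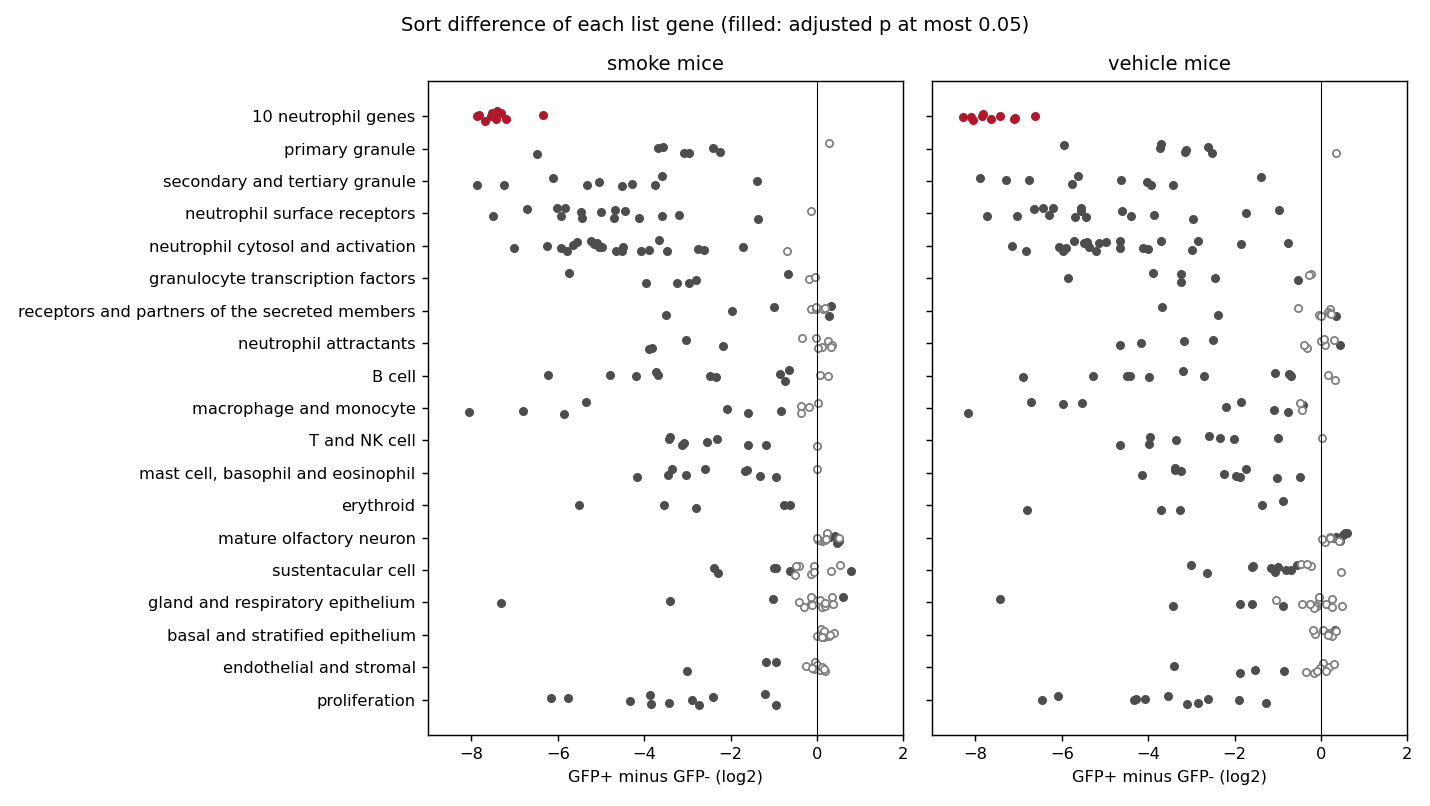
GFP+ minus GFP- difference on the log2 scale (horizontal axis) of each gene of the 10 and of the other lists (vertical axis), in smoke mice on the left and vehicle mice on the right; filled points passed the adjusted p threshold. The 10 genes lie between -8.30 and -6.35; differences of genes at the vomeronasal level in GFP+ cells are fitted values, not bounds. Of the 12 mature olfactory neuron genes 8 exceeded the ceiling on all arrays, and the 9 basal epithelium genes lay below the vomeronasal level in all groups.

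Among the GFP- arrays of one exposure, the 10 genes differed from pool to pool, and they did so together. In smoke GFP- cells replicate 3 was the highest for 10 of 10 genes and replicate 1 the lowest for 8, with replicate 4 the lowest for Ltf and Lcn2. In vehicle GFP- cells replicate 4 was the highest for 9 genes and replicate 3 for Mpo, and the lowest was replicate 1 for 7 genes and replicate 2 for Mmp8, Mmp9 and Mpo. The deviation of a gene from its group means was correlated with the mean deviation of the other 9 over the 8 GFP- arrays as a description. Pearson's r was 0.92 to 0.99 for 9 of the genes and 0.69 for Mpo. Over the 45 pairs of genes r ran from 0.52 (Lcn2 with Mpo) to 0.99 (Mmp8 with Mmp9), with a median of 0.94. These points share the same 8 RNA samples, and ceiling values compress the spread of some genes: the smoke GFP- arrays ranged over 0.71 for Ngp and 2.24 for Mmp8. Replicate 1 of both exposures, which held the lowest value of 8 genes in smoke and 7 genes in vehicle GFP- cells, also had the low Y-linked signal. The part of sex was not tested. Without smoke GFP- replicate 1 the median smoke minus vehicle difference of the 10 genes in GFP- cells was 0.01, and without vehicle GFP- replicate 1 it was -0.31. It was -0.45 without smoke GFP- replicate 3, -0.05 without smoke replicate 4, -0.28 without smoke replicate 2, and -0.02 without vehicle replicate 4.

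In GFP+ cells the pools differed in another measure. Over the 8 GFP+ arrays r with the other 9 was 0.62 to 0.91 for 8 genes, 0.25 for Mmp9 and 0.20 for Mpo. Mmp9 lay below the vomeronasal level on all of those arrays, as did Camp (r = 0.62), whereas Mpo exceeded it on 7 of the 8. Replicate 3 of smoke mice was the highest for 6 genes and replicate 4 the lowest for 6, and in vehicle mice replicate 4 was the highest for 8 and replicate 2 the lowest for 6.

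Genes of other lists deviated with the 10 genes across the same GFP- arrays to different degrees. The median r with the mean deviation of the 10 was 0.96 for the other secondary and tertiary granule genes, 0.95 for the surface receptors and 0.93 for the cytosol and activation genes, against -0.11 over all genes. It was 0.88 for proliferation genes, 0.85 for the 5 erythroid genes, 0.76 for granulocyte transcription factors, 0.73 for B cell genes, 0.72 for the other primary granule genes, 0.67 for T and NK cell genes, 0.66 for the mast cell, basophil and eosinophil genes and 0.62 for macrophage and monocyte genes. The median was 0.25 for gland and respiratory epithelium, without Ltf, -0.02 for sustentacular cells and -0.73 for mature olfactory neurons. Within the gland list r ran from -0.51 for Muc5ac to 0.87 for Lyz1. In smoke GFP- cells the mean deviations of replicates 1 to 4 were -0.61, 0.26, 0.73 and -0.37 for the 10 genes and -0.50, 0.47, 0.97 and -0.94 for the erythroid genes, and those of mature olfactory neurons were 0.05, -0.09, -0.08 and 0.12, on a list that mostly exceeded the ceiling. The part of other blood cells in these deviations was not tested.

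**Figure D4:**
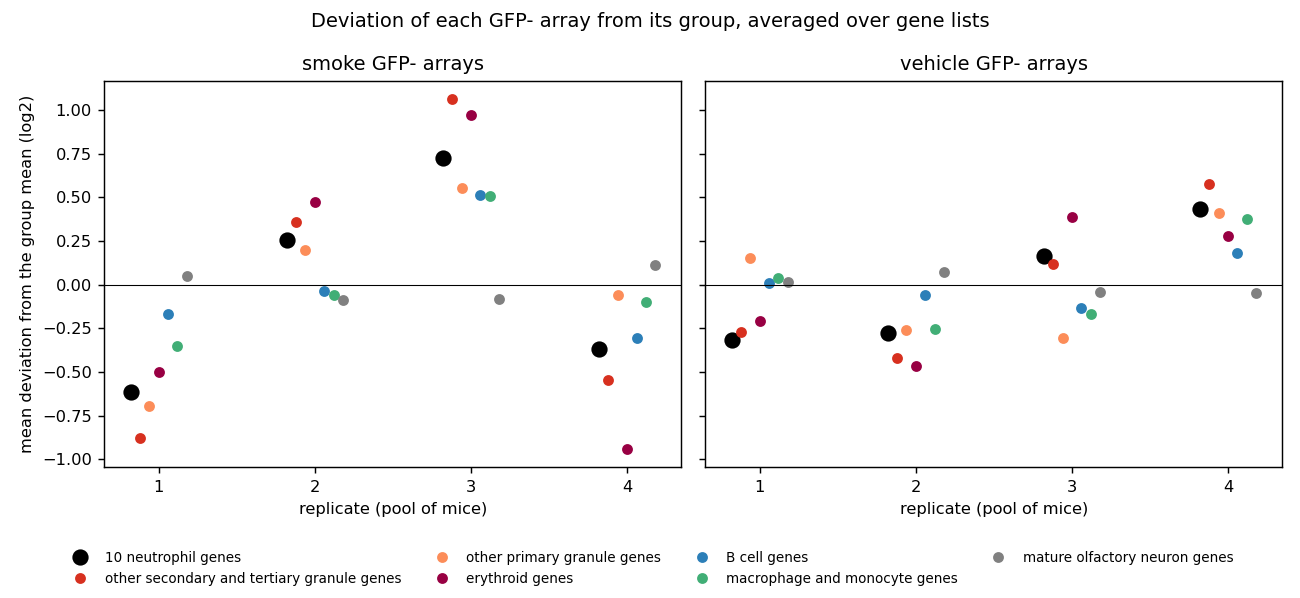
Mean deviation from the group mean on the log2 scale (vertical axis) of each GFP- array (horizontal axis, replicate), averaged over the 10 genes (large black points) and over 6 other lists. In smoke GFP- cells replicate 3 is high and replicates 1 and 4 are low for the 10 genes, at 0.73, -0.61 and -0.37, and mature olfactory neuron genes lie within 0.12 of 0, where 8 of their 12 genes exceeded the ceiling and could show little spread.

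The 10 genes outside the set whose deviations followed those of the set most closely over all 16 arrays were Ly6c1 (r = 0.95), Rflnb (0.92), Rab27a (0.90), Kif11 (0.90), Anxa1 (0.90), Lbp (0.89), AW011738 (0.89), Tmem123 (0.89), Cd24a (0.88) and Ccr2 (0.88). Of these Anxa1 and Ccr2 belonged to a list used here. Ly6c1, a surface antigen of the Ly6 family, averaged 6.57 in GFP+ and 14.52 in GFP- cells of smoke mice and 6.62 in GFP+ and 14.58 in GFP- cells of vehicle mice. Rab27a, a small GTPase of secretory granules, differed by -4.54 and -4.64, and Cd24a, a surface glycoprotein, by -5.70 and -6.13. AW011738 lay below the vomeronasal level in all 4 groups, with group means of 4.69 to 4.91, so its likeness rests on signal at that level. Likeness was ranked among all genes measured and says nothing of shared function.

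**Figure D5:**
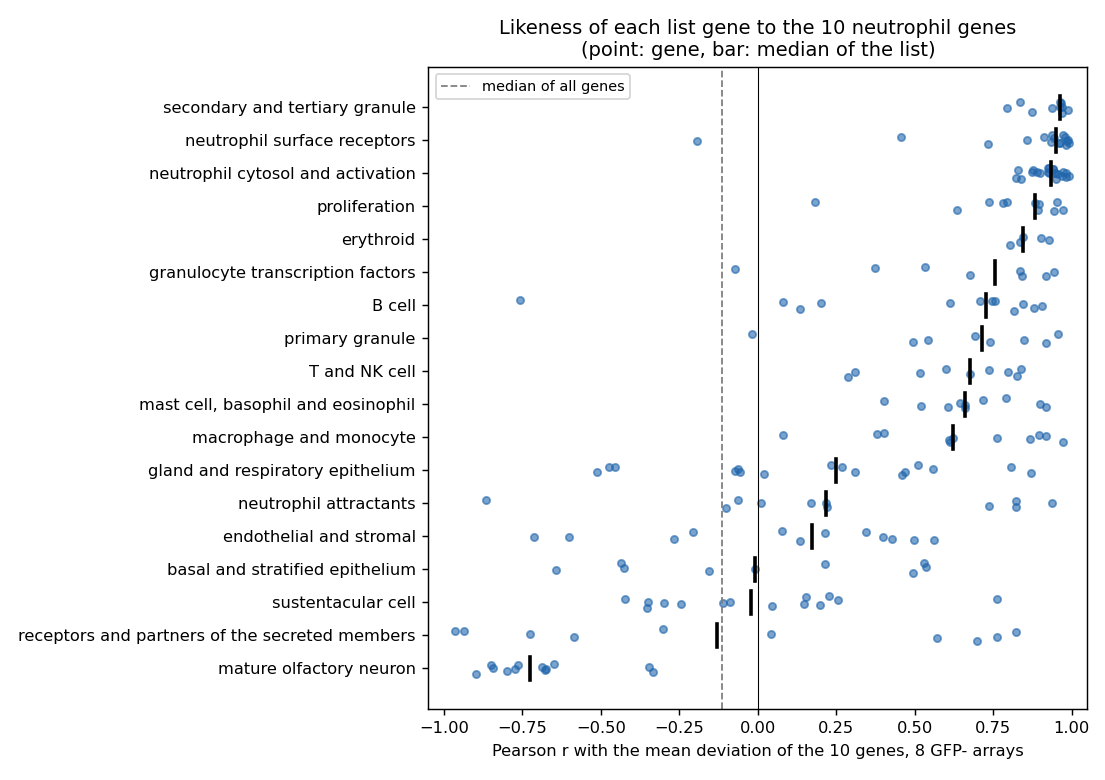
Pearson's r between the deviations of each list gene (points) and the mean deviation of the 10 genes over the 8 GFP- arrays (horizontal axis), by list (vertical axis), with the list median as a black bar and the median of all genes as a dashed line. Medians run from 0.96 for secondary and tertiary granule genes to -0.73 for mature olfactory neuron genes.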

How the data were processed

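The deposited values were gene-level log2 values of 16 Clariom S arrays, which the authors made with Affymetrix Expression Console, per the submitters' processing notes; no source used here gives its version or algorithm. They ran from 2.29 to 18.6, and 0.946% exceeded 16. Sorted values of any 2 arrays differed by at most 0.346, so the arrays were already normalized. Of 28846 probe sets 19572 carried 1 symbol, which left 19505 genes, each read from its probe set with the highest mean. The labels name cigarette smoke and the series text bourgeonal; the labels were followed.

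Fits used R 4.3.3 and limma 3.58.1 (lmFit, contrasts.fit, eBayes) on 4 group means and 5 contrasts. P-values measure the spread between pools of 3 mice made from 50 to 100 ng RNA. The fit was tested on simulated data. A log2 shift of 1 was recovered for 80% of 50 genes in each smoke comparison. In the sort comparisons of smoke and vehicle mice it was recovered for 78% and 82%. These shares do not give the chance of calling such a shift in the neutrophil genes. The smoke SEs of the neutrophil genes ran from 0.30 (Ltf) to 0.45 (Mmp8), and recovery at that spread was not tested. The detection level, the 95th percentile of vomeronasal receptor genes, was chosen after the data were seen. Where a GFP+ mean lay at or below it, values under it were raised to it for a bound.

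The 10 genes, the other lists and the tests were chosen with earlier results of these data known, and no list was tested as a set. Genes named are the 10, S100a5, up to 4 genes past the threshold by smallest p from each list and comparison (else the 2 smallest p), and the 10 most alike in deviations. Ly6g was not analysed here. GFP+ and GFP- arrays of 1 exposure and number were taken as the same pool, which the labels do not state outright. Over all genes their residuals correlated at 0.22, 0.09, 0.09 and 0.13 in smoke and 0.21, 0.08, 0.05 and 0.20 in vehicle pools. The mean deviations of the 10 genes had the same sign in both fractions of every pool. In replicates 1 to 4 of smoke mice they were -0.22, 0.22, 0.47 and -0.47 in GFP+ cells, against -0.61, 0.26, 0.73 and -0.37 in GFP- cells. In vehicle mice they were -0.33, -0.49, 0.22 and 0.60, against -0.32, -0.28, 0.16 and 0.43. The main fit did not use this pairing, so its SEs and p-values for the sorts and the difference of effects leave it out. The labels do not pair pools of 1 number between exposures. Over all genes, residuals of smoke and vehicle arrays of 1 number correlated at 0.14, 0.08, 0.15 and 0.20 in GFP+ cells. In GFP- cells they correlated at 0.18, -0.07, 0.10 and -0.08. Promoters and gene order are from RefSeq, GRCm38.p6; figures used Python 3.11.15 and matplotlib 3.10.9.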

Additional observations from a re-analysis of the deposited data

Results flagged for a closer look

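S100a9 in vehicle GFP+ replicate 4 stood at 9.72, apart from the other 3 arrays of its group, of which the nearest was at 8.68. Its gap was 0.914 of the range of the group, above the Dixon critical value at 95% for 4 samples. Chance flags about 1 in 20 groups, and 40 groups were examined. The same array was the highest of its group for 8 of the 10 genes.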

How the results depend on the processing

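The 10 calls of lower levels in GFP+ cells held in both exposures under every alternative run, and 0 of 10 were called for smoke in either fraction or for the difference of its effects under any of them. The alternatives were 2 scalings, dim genes left out, a replicate block, only the groups compared, eBayes with trend and robust, the mean over probe sets, each array left out, and smoke pools 2 and 4 left out, whose GFP+ arrays had the highest sustentacular signal. Subtracting array medians moved the all-gene median of GFP+ minus GFP- to 0.47 in smoke and 0.51 in vehicle mice, against 0.15 and 0.17, and the share of called genes that were higher to 85.3% and 85.0%, against 56.1% and 61.2%; the median of the 10 genes was then -7.16 and -7.38. The calls of all genes became 14268 and 15086 there. Without smoke pools 2 and 4 they were 5 for smoke in GFP+ cells, 7 in GFP- cells, 3579 for the sort of smoke mice and 9 for the difference of effects. With only the groups compared, smoke in GFP- cells had 8. The main counts were 21, 25, 6373, 7726 and 34 in GFP+, GFP-, the sort of smoke and vehicle mice and the difference. With single arrays left out they ran from 14 to 27, 13 to 28, 4898 to 6474, 6601 to 7348 and 25 to 37. Smoke in GFP- cells had 13 and 14 without vehicle GFP- replicates 1 and 2 and 16 without smoke GFP- replicate 2.

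A replicate block was also fitted, by replicate number across exposures for smoke and by pool for the sorts and the difference of effects. It called 10 of 10 genes in both sorts and 0 for smoke, called 27, 29, 6465, 7921 and 35 of all genes in the same order, and changed no call of the 10.

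The signs of smoke differences were not stable: 53 of 320 values with 1 array left out and 13 of 230 under other settings changed sign, none of them past the threshold. Without smoke pools 2 and 4 the values were 0.039 for Camp, 0.20 for Ngp, -0.077 for Mmp9, 0.16 for S100a9 and 0.055 for Retnlg in GFP+ cells. In GFP- cells they were 0.030 for Camp, 0.072 for Ngp, 0.064 for Lcn2 and -0.0070 for Mpo, and for the difference of effects 0.0091 for Camp and 0.13 for Ngp. Ngp in GFP- cells was 0.0082 with array medians subtracted and 0.041 with quantile normalization. With 1 array left out the GFP+ values ran from -0.44 to 0.21 for Ngp, -0.20 to 0.14 for Ltf, -0.66 to 0.050 for Lcn2, -0.00093 to 0.49 for Mmp8, -0.059 to 0.31 for Mmp9, -0.038 to 0.63 for S100a8, -0.26 to 0.23 for S100a9, -0.35 to 0.29 for Retnlg and -0.13 to 0.59 for Mpo. The GFP- values ran from -0.51 to 0.061 for Camp, -0.15 to 0.084 for Ngp, -0.46 to 0.060 for Ltf, -0.16 to 0.077 for Lcn2, -0.74 to 0.0021 for Mmp9, -0.33 to 0.017 for S100a9 and -0.054 to 0.33 for Mpo. The differences of effects ran from -0.26 to 0.31 for Camp, -0.44 to 0.21 for Ngp, -0.11 to 0.40 for Ltf, -0.63 to 0.079 for Lcn2, -0.11 to 0.39 for S100a9, -0.086 to 0.55 for Retnlg and -0.23 to 0.49 for Mpo. The cause was not tested. Values above the ceiling limit fold sizes in GFP- cells, and values at the vomeronasal level limit them in GFP+ cells.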

Other observations

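S100a8 and S100a9 lie in a cluster of S100 genes on chromosome 3, whose other members were looked at after their values had been seen. S100a4 and S100a6, genes of calcium-binding proteins, were lower in GFP+ cells, by differences of -2.13 and -2.61 in smoke mice and at least 5.49-fold and by -2.997 in vehicle mice, where the GFP+ mean of S100a4 lay below the vomeronasal level. S100a13 was higher in GFP+ cells, by 0.73 in smoke mice and 0.63 in vehicle mice. S100a3 stood at 6.85 in smoke GFP+ and 6.45 in vehicle GFP+ cells, against 5.83 in smoke GFP- and 5.85 in vehicle GFP- cells, above the vomeronasal level in smoke GFP+ cells alone. Pglyrp4, the gene on the far side of S100a9, differed by 0.56 and 0.37, although its group means of 5.81 to 6.37 lay within or below the range of the vomeronasal level. S100a7a, the gene before S100a8, stood at 5.02 to 5.50 in the 4 groups. A drop of more than 7 log2 units in GFP+ cells in fitted values was seen for S100a8 and S100a9 and for none of the other genes read from S100a13 to Lelp1.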
